A study of Glycine max with 8 samples.

Results

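Open chromatin of soybean seed was compared with that of soybean root, using MNase hypersensitive sites, the stretches of chromatin that micrococcal nuclease (MNase) frees as short DNA fragments under light digestion. Both tissues came from the cultivar Williams 82 and from greenhouse plants kept under 12 h of light at 28 °C and 12 h of darkness at 25 °C. Seeds were taken from plants at stage R4, and roots from seedlings at stage V2. The seed records name stage R4 for the seeds and the other records of the series name stage R1. Tissue, plant age and harvest stage therefore change together. Leaf and flower libraries of the series serve for comparison only. The leaf labels give the same light and temperatures, and the flower labels used here give none. There were 2 libraries per tissue, 4 of the 8 in the series, and nothing in the labels tells whether the libraries of a tissue are from different plants, so the spread between them may be technical.

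Sites of at least 100 bp were kept in every list, because the seed lists hold none shorter. A reproducible region of a tissue is the stretch of at least 20 bp that a site of library 1 and a site of library 2 have in common. Seed had 47979 such regions and root 1482, which merged into 48762 regions out of 81056 for leaf, flower, seed and root together. Shared regions are merged regions in which a seed and a root reproducible region overlap by at least 1 bp. Seed-only regions are seed reproducible regions that overlap no kept site of either root library, and root-only regions are the converse. Shared regions numbered 657, seed-only regions 45890 and root-only regions 480. With 1 library taken to stand for its tissue, there were 1426 shared and 1344 root-only regions without root 1, 1268 and 1344 without root 2, 730 and 734 without seed 1, and 898 and 553 without seed 2. Seed-only regions then numbered 60970 without seed 1 and 80107 without seed 2.

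Nuclease-accessible DNA in plants is found mainly at promoters and at distal regulatory elements, where transcription factors take the place of nucleosomes, and different organs open partly different sets of such elements. Soybean chromosomes carry most of their genes towards both ends, around long, repeat-rich and recombination-poor middles. Position along the chromosome is thus a coarse guide to the kind of DNA in which a site lies.

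The libraries differed most in how many sites they held. Kept sites numbered 82798 and 63243 in seed, against 3192 and 3355 in root. They covered 17.1 and 11.7 Mb in seed, against 0.534 and 0.540 Mb in root, of the 948.9 Mb that the sites of the series span. The seed mean of 73021 ± 13827 sites (SD, n = 2) lay far above the root mean of 3274 ± 115 (SD, n = 2), and the libraries did not overlap. With 2 libraries against 2, the two-sided exact permutation test gives p = 0.33 for any complete separation, which is the smallest p it allows. Of all root sites, 79.0% and 82.3% were shorter than 100 bp and were set aside. The root lists also differ in form, with no score and with the lines of chromosome 11 written out again, so tissue and the way a list was made cannot be told apart. Read depth behind the lists is unknown, and an unlisted position need not be closed. In bulk tissue, fewer cells with an open site and less opening per cell cannot be told apart either. The lists hold no genes, so the tissue labels were not checked against marker genes.

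Libraries of a tissue met each other more often in seed. Seed 1 sites were met by seed 2 in 56.4% of cases and seed 2 sites by seed 1 in 75.2%, whereas root 1 sites were met by root 2 in 45.4% and root 2 sites by root 1 in 43.5%. These shares rise with the length of the list that is met, which is about the same for both root libraries.

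Root regions met seed regions far more often than seed regions met root regions. Of the seed regions, 684 (1.43%; 95% Wilson interval 1.32 to 1.54) met a root region, 45890 (95.6%; 95.5 to 95.8) met no kept root site, and 1405 (2.93%) met a kept root site but no reproducible root region. Of the root regions, 672 (45.3%; 42.8 to 47.9) met a seed region, 480 (32.4%; 30.1 to 34.8) met no kept seed site, and 330 (22.3%) met a kept seed site but no reproducible seed region. Intervals cover counting error only. For comparison, the seed regions covered 0.834% of the span and the root regions 0.0255%. The shares describe lists of very unequal length, and with 3192 sites in every list, the highest-scoring in seed and the widest in root, 232 regions were shared, 815 were seed-only and 1061 root-only.

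Where a shared region held a single region of each tissue, those regions lay close upon each other. This was so for 618 of the 657 shared regions. Their median width was 178.5 bp in seed and 155 bp in root, with the seed region the wider in 320, the root region the wider in 296 and equal widths in 2. In 430 of the 618 (69.6%) the narrower region lay wholly inside the wider one, and the centres were a median of 16.8 bp apart. Shared regions must overlap by at least 1 bp, so some closeness is set by their definition, and no baseline was computed. Among the remaining shared regions, 14 held more than 1 root region and 25 more than 1 seed region, up to 3 of either.

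Along the chromosomes the kept sites of the tissues were distributed in opposite ways. The outer 20% at each end, 40% of the span in all, held 65.5% and 63.6% of the kept seed sites, against 27.1% and 34.3% of the kept root sites. Per Mb, the outer parts held 143 and 106 seed sites and the inner 60% held 50.1 and 40.4, while root had 2.28 and 3.03 sites per Mb in the outer parts and 4.09 and 3.87 in the inner part. The log2 ratio of outer to inner density was 1.51 and 1.39 in seed, against -0.84 and -0.35 in root. Seed thus lay above root in every library, by a mean of 2.05 on the log2 scale (two-sided exact permutation p = 0.33). The difference stayed positive in every alternative tried, between 1.31 and 2.35. With no minimum width, however, the mean log2 ratio of root was 0.14, against -0.60 for kept sites. The inner excess of root therefore depends on the 100 bp limit, and the higher outer-to-inner ratio of seed does not.

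The profile from chromosome end to middle shows where the difference arises. In the outermost 10% next to each end, density was 1.85 and 1.77 times the genome-wide mean in seed, against 0.625 and 0.787 times in root. In the innermost bin it was 0.365 and 0.385 times the mean in seed, against 1.28 and 1.08 times in root. Seed density fell at each step from the ends to the middle, whereas root density peaked in the bin from 30 to 40% of the chromosome, at 1.59 and 1.35 times the mean. Of the 1015 and 908 kept root sites in that bin, 96 and 67 lay in the 1 Mb window starting at 31000001 on chromosome 6. A further 107 and 74 lay in the next window there, and 61 and 82 in the window starting at 39000001 on chromosome 18. The peak thus rests in part on a few windows, and the profile without them was not computed.

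**Figure D1:**
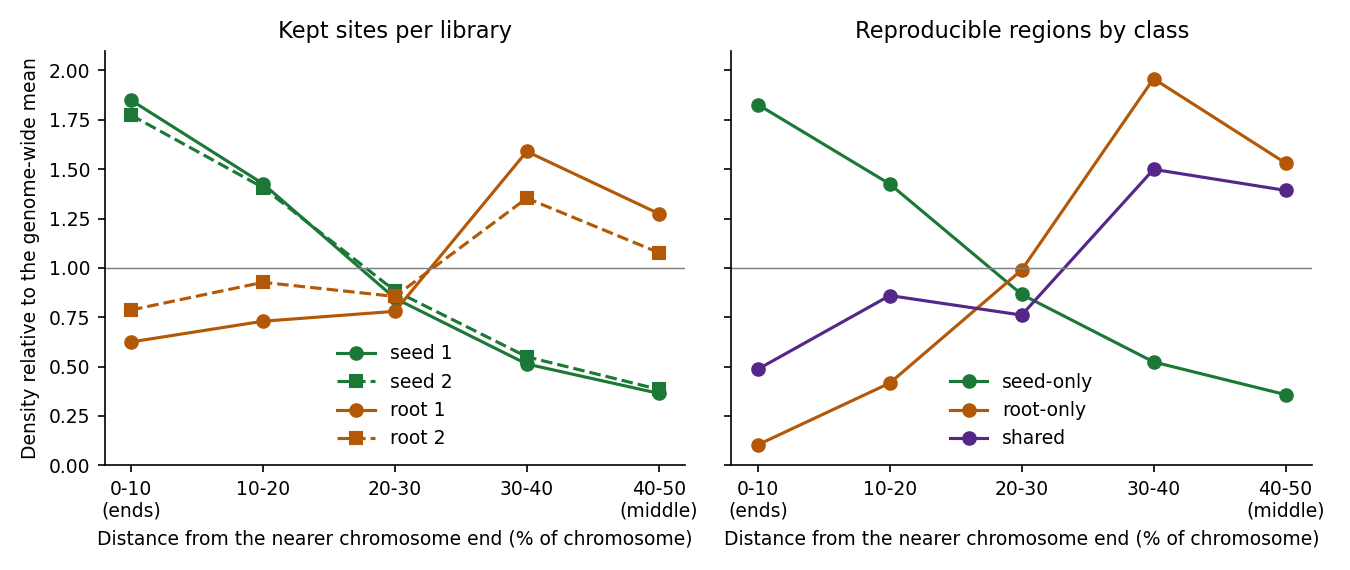
Density of kept sites per library (left) and of reproducible regions by class (right), relative to the genome-wide mean of each set, in 5 bins from the chromosome ends to the middle with both arms combined. Both seed libraries decline from the ends, at 1.85 and 1.77, to the middle, at 0.365 and 0.385, and both root libraries peak in the bin from 30 to 40%.

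Over all reproducible regions, the log2 ratio of outer to inner density was 1.44 in seed and -1.57 in root. Of the seed-only regions, 65.0% lay in the outer parts, which gave a log2 ratio of 1.48. Root-only regions lay there in 10.4% of cases (50 of 480), a log2 ratio of -2.52, and shared regions in 26.9% (177 of 657), a log2 ratio of -0.85. Root-only regions are those that met no kept seed site, and seed sites are denser in the outer parts. Part of their inner position is therefore set by the definition of the class, and how large a part was not tested. Only 2.71% of root-only regions lay within 5 Mb of a chromosome end, against 38.5% of seed-only regions. The median distance to the nearer end was 6.70 Mb for seed-only, 17.8 Mb for root-only and 16.0 Mb for shared regions.

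The same split is visible within each library. Seed sites that met no kept root site had log2 ratios of 1.55 in seed 1 and 1.43 in seed 2, and root sites that met no kept seed site had -2.15 in root 1 and -1.09 in root 2. For overlapping sites the direction depended on how root sites were chosen. Seed sites that met a reproducible root region lay mostly inside, at -1.23 and -1.04, but root sites that met a reproducible seed region were slightly denser in the outer parts, at 0.24 and 0.36. When root was represented by a single library, the log2 ratio of the shared regions was 0.35 without root 1 and 0.23 without root 2. With both root libraries and no minimum width it was 0.29, so its sign depends on the 100 bp limit as well as on the root libraries required. In the outer parts, 68.6% of the 271 root regions were shared with seed and 18.5% were root-only, and in the inner part 40.1% of 1211 were shared and 35.5% root-only. Of the seed regions, 0.576% in the outer parts and 2.96% in the inner part were shared with root.

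Chromosomes differed little in seed-only density and much in root-only density. Seed-only regions ranged over 1.64-fold, with the highest values on chromosome 13 (65.9 per Mb), chromosome 11 (61.0) and chromosome 8 (57.9), and the lowest on chromosome 18 (40.1 per Mb). Root-only regions ranged over 9.47-fold, with 1.09 per Mb on chromosome 6, 0.885 on chromosome 2 and 0.835 on chromosome 20, down to 0.115 on chromosome 11, where there were 4. Shared regions ranged over 4.73-fold and were densest on chromosomes 6 (1.36 per Mb), 2 (1.32) and 15 (1.24), and sparsest on chromosome 11 (0.288). Chromosomes 6 and 2 were thus highest for both classes with root sites, although neither was highest in seed-only regions. These densities rest largely on single windows of 1 Mb. On chromosome 6, neighbouring windows held 26 and 23 of its 56 root-only regions, and 7 and 33 of its 70 shared regions. A window on chromosome 2 held 26 of 43 root-only and 32 of 64 shared regions, and another on chromosome 20 held 28 of 40 root-only regions. The root-only and shared counts per chromosome are small, and differences between neighbouring ranks were not tested.

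Chromosome 11, the shortest by span, was second in seed-only density and low, though not lowest, in kept root sites per Mb. It held 3906 and 2892 kept seed sites, or 112 and 83.2 per Mb, against 71 and 77 kept root sites, or 2.04 and 2.22 per Mb. Chromosome 3 had fewer in both root libraries, at 2.01 and 2.18 per Mb, and chromosome 1 fewer in root 1, at 1.71 per Mb. Root had 0.776 reproducible regions there for every 100 seed regions, against a median of 2.51 over the 20 chromosomes and 5.84 on chromosome 6. Chromosome 11 is also the one whose root lines had been deposited in duplicate, and the part of that in its root values was not tested. Chromosome 6 held 4874 and 3707 kept seed sites, against 316 and 272 kept root sites, the most of any chromosome in both root libraries.

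The share of root regions that were also seed regions varied by chromosome around a median of 45.7%. It was lowest on chromosome 5, where 19 of 79 root regions (24.1%) were shared, and highest on chromosome 17, where 39 of 64 (60.9%) were. Root-only regions made up 14.1% of the root regions on chromosome 17 and 56.9% on chromosome 10. On 19 of 20 chromosomes both seed libraries had a higher outer-to-inner ratio than both root libraries, and on chromosome 13 the order was the opposite. There the log2 ratios were -0.34 and -0.40 in seed, against 1.77 and 1.52 in root, and 94.7% of the 19 root-only regions lay in the outer parts, against 33.3% of the seed-only regions. Both root libraries were below 0 on 12 chromosomes, both above 0 on 5 and of mixed sign on 3.

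**Figure D2:**
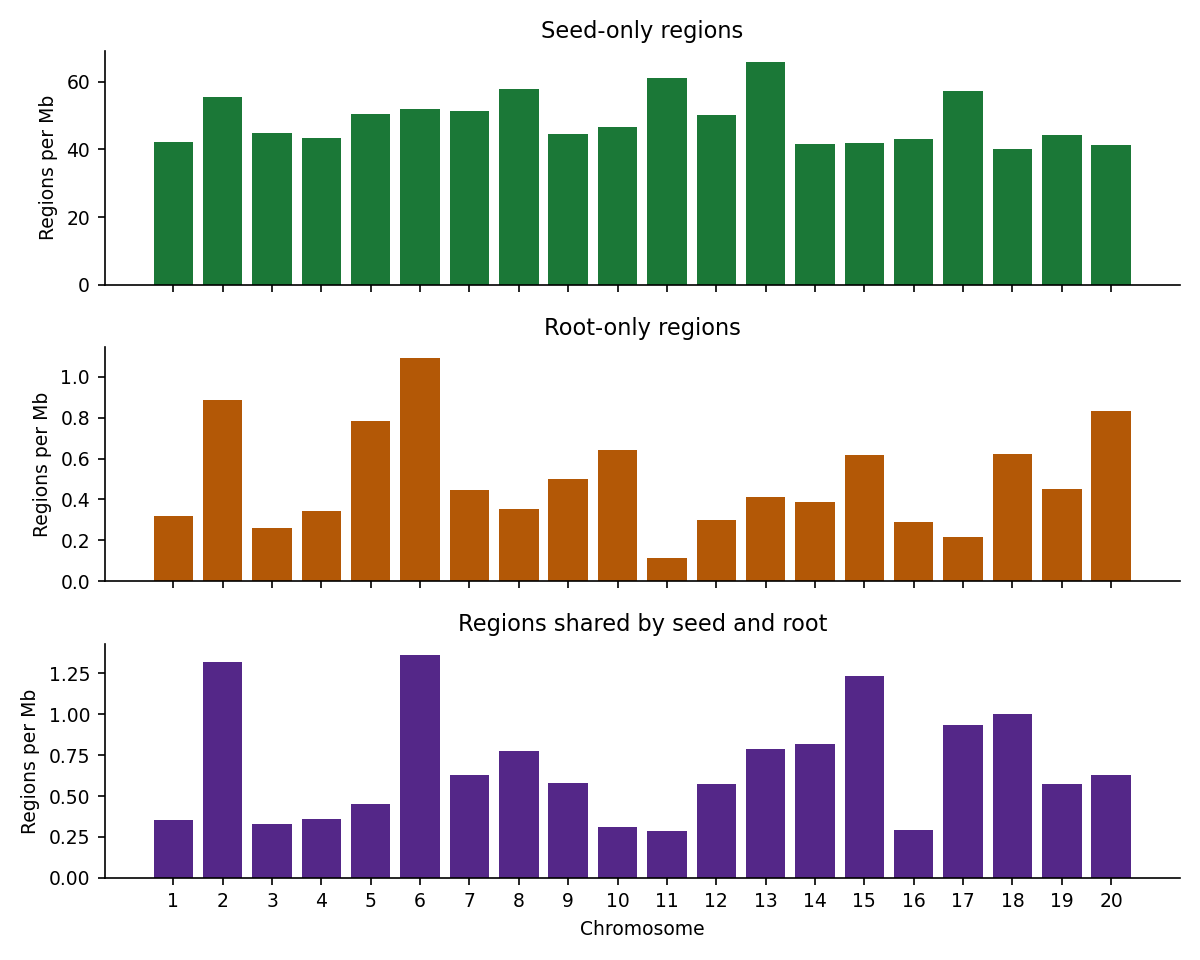
Regions per Mb on each of the 20 chromosomes for seed-only (top), root-only (middle) and shared regions (bottom), each panel with its own scale from 0. Seed-only density is even, between 40.1 and 65.9 per Mb, whereas root-only density runs from 0.115 on chromosome 11 to 1.09 on chromosome 6.

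Kept seed sites were wider than kept root sites. Median width was 183 and 164 bp in seed, against 139 and 134 bp in root, and 42.6% and 32.3% of seed sites were at least 200 bp wide, against 17.1% and 15.8% of root sites. The means of the medians, 173.5 ± 13.4 bp in seed and 136.5 ± 3.5 bp in root (SD, n = 2 each), differed by 37.0 bp, with no overlap of libraries (two-sided exact permutation p = 0.33). The lower bound of 100 bp cuts into the root widths: root 1 held 863 sites of 90 to 99 bp and 566 of 100 to 109 bp, and root 2 held 1024 and 712. The widest site was nearly the same in all, at 3490 and 3496 bp in seed and 3479 and 3481 bp in root.

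Shared regions were wider than those of a single tissue. The median width was 150 bp for seed-only regions, 114 bp for root-only regions and 222 bp for shared regions, although a shared region joins a pair of tissues and can only be as wide as its widest part or wider. Measured within a tissue, seed regions had a median of 177 bp when shared and 150 bp when seed-only, and root regions had 157.5 bp when shared and 114 bp when root-only. The share of root regions that were shared with seed rose with each width class. It was 30.2% at 20 to 99 bp, 33.9% at 100 to 149 bp, 55.5% at 150 to 199 bp, 69.1% at 200 to 299 bp and 81.0% at 300 to 499 bp, and 31 of the 32 root regions of at least 500 bp were shared. A wider region has more room to meet another, which was not separated here from other differences. Among seed regions the share did not rise at every step: it was 0.577% at 20 to 99 bp, 1.36% at 100 to 149 bp, 1.12% at 150 to 199 bp, 1.64% at 200 to 299 bp, 3.96% at 300 to 499 bp and 21.8% (22 of 101) from 500 bp.

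**Figure D3:**
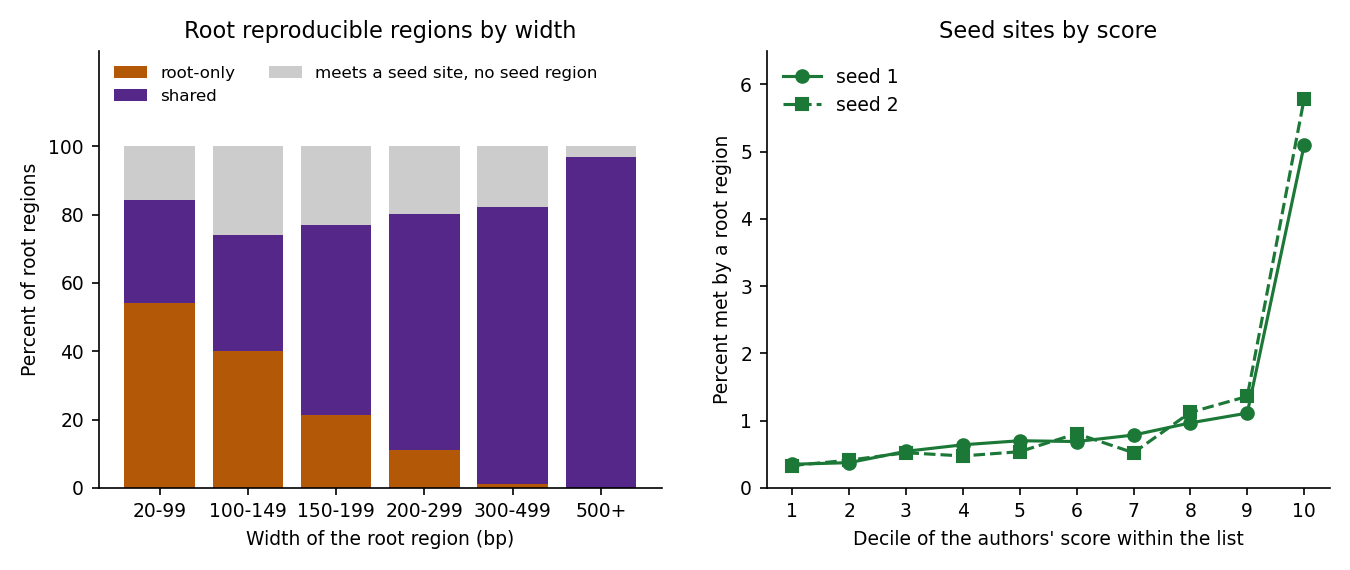
Left, root reproducible regions by width, divided into root-only, shared, and those that meet a kept seed site but no seed region. Right, percent of kept seed sites that meet a root reproducible region, by decile of the authors' score within seed 1 and within seed 2. The root-only part shrinks from 54.2% of the narrowest root regions to 1.27% at 300 to 499 bp, and the top score decile stands apart at 5.10% and 5.79%.

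The authors' score, present for seed, offers a separate view of the shared regions. What it measures is not given in the labels, and it was used as a rank within a list. Seed 1 sites behind shared regions had a median at percentile 95.7 and those behind seed-only regions at percentile 63.9. In seed 2 the medians were at percentiles 91.5 and 57.0. Seed sites behind regions that met a kept root site but no reproducible root region lay between, at 91.4 in seed 1 and 80.1 in seed 2. High scores were thus not particular to shared regions. Ranked within 3 width classes the medians for shared regions were 95.2 and 91.7, against 56.7 and 53.3 for seed-only regions, so the order was the same among sites of like width. The highest 10% of scores held 59.9% and 53.3% of the seed sites behind shared regions, against 14.9% and 11.8% of those behind seed-only regions. For regions that met a kept root site but no root region the shares were 53.9% and 35.7%. Seen from the lists, 5.10% of the seed 1 sites and 5.79% of the seed 2 sites in the highest decile met a root region, against 1.11% and 1.36% in the decile below and 0.350% and 0.332% in the lowest decile.

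Kept root sites lay in tight groups separated by long stretches without kept sites, and kept seed sites were spread more evenly. The median gap from a kept site to its nearest neighbour was 1336 and 1858 bp in seed, against 2894 and 8652 bp in root. A neighbour within 1 kb was found for 42.9% and 35.1% of seed sites, against 37.9% and 32.7% of root sites, so the closest neighbours were about as common in root although its lists were far shorter. The upper quartile of the gap was 3790 and 5276 bp in seed, against 142273 and 137332 bp in root. On the log10 scale the median gap was lower in seed by 0.50 (two-sided exact permutation p = 0.33). With no minimum width, the mean log10 median gap of root was 4.02, against 3.70 for kept sites, although the root lists were longer. The spacing of root sites therefore depends on the 100 bp limit. List length differs with the tissue, and its part alone was not tested. With 3192 sites in every list, the order was reversed: the median gap was 60.7 and 72.0 kb in seed, against 2.89 and 8.31 kb in root, and 3.79% and 4.57% of seed sites had a neighbour within 1 kb, against 37.9% and 33.1% of root sites. These are the highest-scoring seed sites and the widest root sites, since root has no score.

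**Figure D4:**
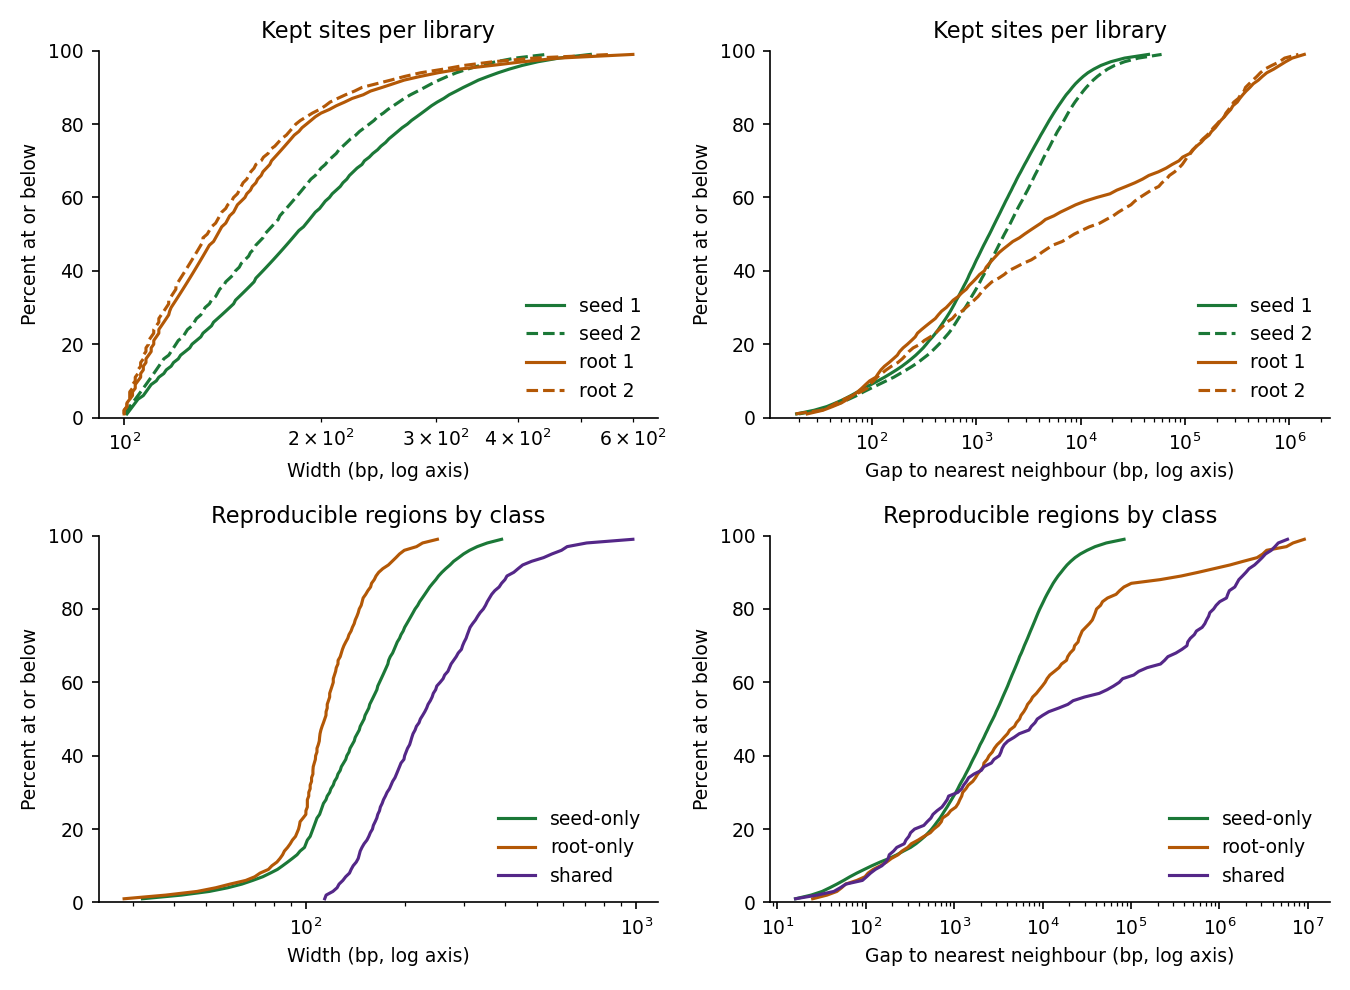
Cumulative distributions, on log axes, of width (left) and of the gap to the nearest neighbour (right) for kept sites per library (top) and for reproducible regions by class (bottom), drawn at percentiles 1 to 99. The root gap curves start with the seed curves and then flatten, reaching upper quartiles of 142273 and 137332 bp against 3790 and 5276 bp in seed.

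The classes differed in spacing in the same way. The median gap between neighbours of a class was 2736 bp for seed-only regions, 5490 bp for root-only regions and 8707 bp for shared regions, and the upper quartiles were 7608 bp, 30773 bp and 640094 bp. A further region of the same class lay within 1 kb for 29.3% of seed-only, 26.0% of root-only and 29.7% of shared regions, although seed-only regions were far more numerous. In the outer parts a shared region was a median of 447325 bp from the next, and in the inner part 3428 bp. Shared regions were thus on the whole further apart in the outer parts, although some there lay close together, such as 7 within 21.7 kb near the end of chromosome 12.

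Root-only regions varied widely in their distance from seed open chromatin. The median distance from a root-only region to a reproducible seed region was 10.4 kb, 187 of the 480 (39.0%) lay within 5 kb of one, 52 within 500 bp, and 86 (17.9%) more than 100 kb away. To the nearest kept site of seed 1 and seed 2 the medians were 2.13 and 4.92 kb, with 61.5% and 50.4% within 5 kb. From a seed-only region the median distance to a reproducible root region was 827 kb, and 91.3% were more than 100 kb away. To kept sites of root 1 and root 2 the medians were 186 and 155 kb, with 68.2% and 63.0% beyond 100 kb. The smaller number of root sites and regions makes the distances from seed-only regions long by itself. A shared region lay within 5 kb of 34.6% of root-only regions.

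In windows of 1 Mb the classes with root sites were concentrated. Of 956 windows, 951 held a seed-only region, 121 a root-only region and 273 a shared region. The 10 fullest windows of each class held 2.98% of seed-only, 38.1% of root-only and 30.4% of shared regions. The 273 windows with a shared region contained 379 of the 480 root-only regions (79.0%). The 121 windows with a root-only region contained 5.91% of seed-only regions. These shares come from different sets of windows and are not to be compared with each other.

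The fullest windows for root-only regions were on chromosomes 20, 2 and 6. The window that starts at 14000001 on chromosome 20 held 28 root-only, 14 shared and 2 seed-only regions, from 41 and 22 kept seed sites and 99 and 64 kept root sites. On chromosome 2, the window starting at 20000001 held 26 root-only, 32 shared and 6 seed-only regions, from 72 and 49 seed sites and 111 and 92 root sites. The window starting at 31000001 on chromosome 6 held 26 root-only, 7 shared and 5 seed-only regions, from 34 and 22 seed sites and 96 and 67 root sites. In all 3 of these inner windows each root library listed more sites than either seed library, although the windows were picked for their root-only regions.

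The fullest windows for shared regions included the same window on chromosome 2 and 2 further ones. The window starting at 32000001 on chromosome 6 held 33 shared and 23 root-only regions, from 50 and 45 kept seed sites and 107 and 74 kept root sites. No seed-only region was listed there. On chromosome 18, the window starting at 39000001 held 22 shared, 8 seed-only and 7 root-only regions, from 62 and 64 seed sites and 61 and 82 root sites. The 6 inner windows with the most root sites took in 0.355% and 0.348% of the kept seed sites, against 18.2% and 13.4% of the kept root sites. Without them the log2 ratio of outer to inner density was 1.51 and 1.39 in seed, against -0.44 and -0.042 in root. With them it was -0.84 and -0.35 in root. The windows were picked for their root sites, so a smaller inner excess of root follows from the choice. Little of that excess was left in root 2 and a part of it in root 1.

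Seed-only regions were densest close to chromosome ends. On chromosome 1 the window starting at 52000001 held 152 of them, from 269 and 201 kept seed sites and 1 kept root site in each root library. Its neighbour starting at 53000001 held 141 seed-only and 3 shared regions, from 211 and 183 seed sites and 3 and 5 root sites. The window starting at 3000001 on chromosome 11 held 146 seed-only regions, from 267 and 189 seed sites and 6 and 2 root sites. Over the whole span, root 1 and root 2 held 3.36 and 3.54 kept sites per Mb, so root counts in these windows lay below, near and above that level.

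The 3 widest shared regions were sites of unusual length listed almost identically in both tissues, and in leaf and flower as well. On chromosome 15 at 19588801 to 19592289, a region of 3489 bp, the sites were 3490 and 3496 bp wide in seed and 3479 and 3481 bp in root. Just before it, at 19586851 to 19588510 (1660 bp), they were 1660 and 1658 bp wide in seed and 1651 and 1662 bp in root. On chromosome 19 at 5356265 to 5357504 (1240 bp), they were 1245 and 1244 bp wide in seed and 1232 and 1241 bp in root. In the first of these regions, leaf sites were 3471 and 3473 bp wide and flower sites 3464 and 3466 bp. Widths in these 3 regions hardly differed among the 8 libraries of the series, so they were not particular to seed and root. The seed sites stood above percentile 99.9 of their lists by score.

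The next widest lay close to the end of chromosome 12, where root sites, like flower sites, were narrower than the seed site. At 39187422 to 39188562 (1141 bp), seed had a single site of 1151 and 1159 bp, against 3 root sites of 212, 125 and 259 bp in root 1 and of 214, 118 and 430 bp in root 2. At 39191642 to 39192762 (1121 bp), seed had a site of 1129 and 1123 bp, against a root site of 202 and 249 bp. Flower sites were narrow at both regions too, with widths at the first of them of 199, 137 and 115 bp for flower 1 and of 194, 191, 107 and 144 bp for flower 2, so narrower pieces inside a long seed site were not particular to root.

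Shared regions also formed runs, in which neighbours were at most 5 kb apart. The largest, on chromosome 15 at 19585870 to 19603402, held 17 shared regions over 17.5 kb, from 17 and 19 seed sites and 18 and 18 root sites, with a median gap of 367 bp. Sites covered 9496 and 9600 bp of it in seed, against 9492 and 9921 bp in root. A run of 16 on chromosome 18 at 39379815 to 39401399 had 20 and 26 seed sites covering 3890 and 4521 bp, against 20 and 28 root sites covering 4075 and 6181 bp. A run of 10 lay on chromosome 9 at 24443102 to 24458667, with 15 and 13 seed sites and 14 and 13 root sites. Similar site counts in the libraries follow in part from the choice of these runs, since a shared region holds a site of each of the 4 libraries. Runs of 3 or more held 33.2% of all shared regions, and 54.6% of shared regions stood alone.

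**Figure D5:**
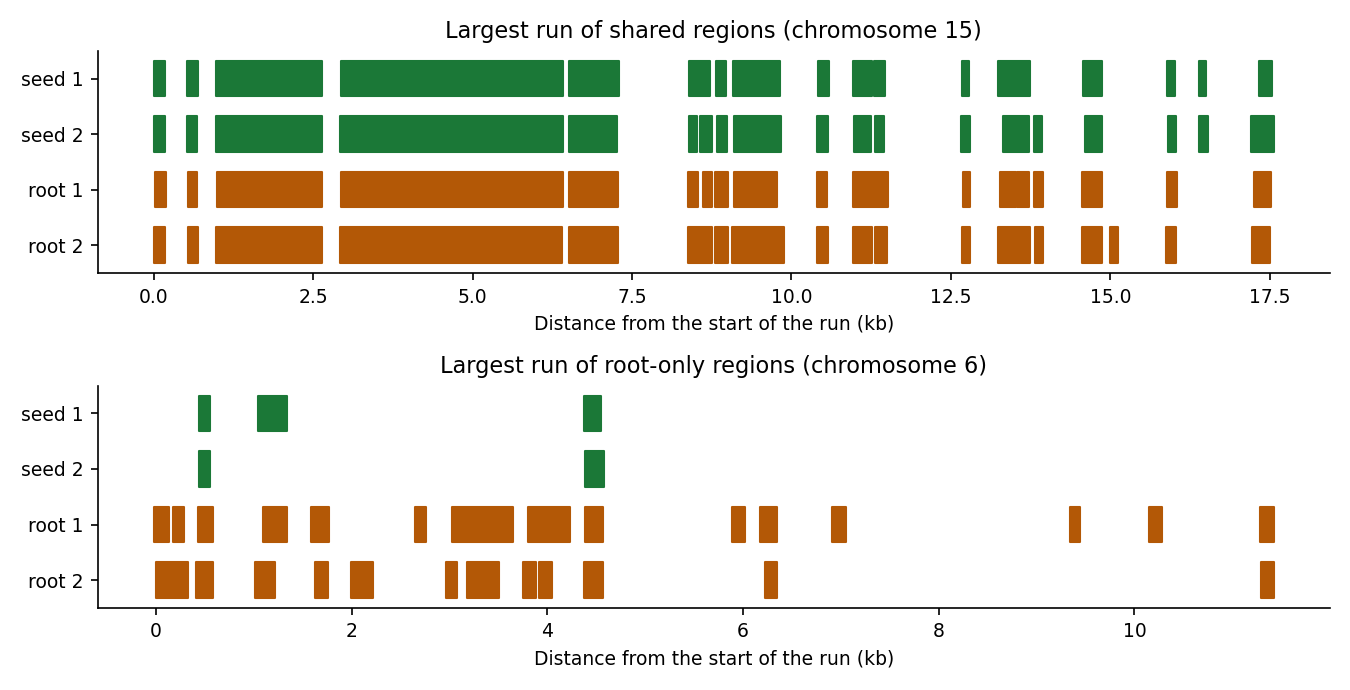
Kept sites of each library over the largest run of shared regions, on chromosome 15 (top), and of root-only regions, on chromosome 6 (bottom), drawn to scale as distance in kb from the start of the run. In the upper run the 4 libraries list nearly the same blocks, and in the lower run seed 1 and seed 2 list 3 and 2 sites against 15 and 12 in root 1 and root 2.

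The widest seed-only regions were long sites in both seed libraries. The widest lay on chromosome 15 at 47753767 to 47754563 (797 bp), with sites of 813 and 797 bp and with the nearest kept root site 200650 bp away in root 1 and 15913 bp away in root 2. Next came a region of 753 bp on chromosome 7 (31241531 to 31242283) and another of 679 bp on chromosome 13 (32179018 to 32179696). The remaining pair spanned 648 bp on chromosome 11 (34414318 to 34414965) and 645 bp on chromosome 1 (48880272 to 48880916). The region on chromosome 7 stood at score percentiles 98.0 and 99.2 and had no kept root site within 796053 bp. The region on chromosome 13 had kept root sites 8847 and 8872 bp away. All 5 were met by leaf 1, and the region on chromosome 11 was the one met by neither flower library nor leaf 2.

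The seed-only regions with the highest scores were narrower, and all 5 were met by root sites shorter than 100 bp. The highest spanned 202 bp on chromosome 1 (39578978 to 39579179), ahead of 203 bp on chromosome 18 (7524510 to 7524712) and 174 bp on chromosome 14 (11475717 to 11475890). The other two spanned 226 bp on chromosome 19 (2266672 to 2266897) and 313 bp on chromosome 12 (39189952 to 39190264). Short sites of both root libraries met 4 of them, and on chromosome 19 those of root 2 alone did. Their seed scores stood between percentiles 99.87 and 99.95 of their lists. With no minimum width, none of these 5 regions would be seed-only.

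The largest runs of seed-only regions held 15 on chromosome 19 at 43715671 to 43747392, 14 on chromosome 9 at 41020414 to 41042397 and 14 on chromosome 12 at 39178941 to 39200688. The run on chromosome 9 had 16 and 16 kept seed sites over 22.0 kb and no kept root site. The other two runs were mixed, with 5 shared regions in the run on chromosome 19 and 7 in the run on chromosome 12. On chromosome 12 there were 28 and 26 seed sites covering 10048 and 9599 bp, against 11 and 15 root sites covering 2634 and 3214 bp.

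Root-only regions were short even at their widest. The widest, on chromosome 6 at 31621531 to 31621854, spanned 324 bp, with sites of 614 bp in root 1 and 324 bp in root 2, and the nearest seed sites were 865 and 878 bp away. Next came 286 bp on chromosome 1 (21246663 to 21246948) and 284 bp on chromosome 18 (40704499 to 40704782). The remaining pair spanned 271 bp on chromosome 2 (19924182 to 19924452) and 254 bp on chromosome 6 (32113049 to 32113302). The region on chromosome 18 had sites of 292 and 284 bp, with nearest seed sites 1811 and 3065 bp away. Those on chromosome 2 and at 32113049 on chromosome 6 nearly touched seed sites, which began 15 and 16 bp and 67 and 52 bp away. All 5 lay in the inner part of their chromosomes, between 17.3 and 21.2 Mb from the nearer end.

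Runs of root-only regions lay in the same chromosome parts. The largest held 9 on chromosome 6 at 31618349 to 31629770, where 3 and 2 kept seed sites covered 589 and 309 bp, against 15 and 12 kept root sites covering 3043 and 2216 bp. A run of 6 on chromosome 2 at 20029608 to 20038452 had 2 and 1 seed sites, against 10 and 9 root sites. Another run of 6, on chromosome 18 at 40704499 to 40708343, had 3 and 1 seed sites, against 8 and 10 root sites. In each of these runs the seed lists were not empty, and 1 or 2 shared regions lay among the root-only ones.

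Leaf and flower libraries did not define the classes, and the classes differed in how often they met them. Root-only regions had to miss every kept seed site, and 68.5% of seed regions met a leaf region. Part of their low leaf and flower shares may thus be set by the definition of the class, and how large a part was not tested. Leaf and flower lists also have the form of the seed lists, with scores and no site under 100 bp, unlike those of root. A reproducible leaf region met 92.1% of shared regions (95% Wilson interval 89.8 to 93.9), 67.4% of seed-only regions (67.0 to 67.9) and 15.4% of root-only regions (12.5 to 18.9). A flower region met 69.9% of shared (66.2 to 73.2), 43.8% of seed-only (43.3 to 44.2) and 2.92% of root-only regions (1.75 to 4.84). Over all seed regions the shares were 68.5% for leaf and 45.2% for flower, and over all root regions 57.5% and 35.8%. Seed-only regions make up 95.6% of the seed regions and root-only regions 32.4% of the root regions, so each class weighs differently in its whole.

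The order was the same within classes of width, although the definition of the classes acts on these splits as well. Among regions of 100 to 149 bp, leaf met 59.1% of seed-only and 16.2% of root-only regions, and 86.3% of the root regions shared with seed. Among those of 150 to 199 bp it met 72.9%, 24.2% and 91.3%. It was the same within the inner parts of the chromosomes, where leaf met 63.6% of seed-only, 15.3% of root-only and 91.5% of shared regions. The leaf share of root-only regions itself moved with the lists, to 7.59% without root 2, 9.38% without root 1, 27.4% without seed 1 and 44.0% with 3192 sites in every list, and was below that of seed-only regions in each of these settings.

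Leaf and flower libraries did not treat root-only regions evenly. Leaf 1 listed a kept site at 107 of the 480 root-only regions (22.3%) and leaf 2 at 240, and flower 1 did at 80 (16.7%) and flower 2 at 34 (7.08%). For seed-only regions leaf 1 did at 34439 of 45890 and leaf 2 at 33528 (73.1%), and flower 1 did at 50.8% and flower 2 at 61.4%. No kept leaf or flower site was listed at 175 root-only regions (36.5%), at 6572 seed-only regions (14.3%) and at 6 of the 657 shared regions (0.913%). Shared regions were therefore, with few exceptions, also listed in leaf or flower.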

How the data were processed

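Per the labels' protocols, 1 g of ground tissue, or 0.5 g for leaf, was fixed with formaldehyde at 1% for 10 min. Digestion of the nuclei took 10 min at MNase amounts of up to 0.1 unit, and DNA under 100 bp was sequenced. The submitters' processing notes list Trimmomatic 0.36 and BWA 0.7.15-r1140. Neither the caller of the sites and its threshold nor the genome build is given in the sources used here. The authors deposited 1 list of site positions per library, and for seed, leaf and flower a score per site without a header.

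Repeated root lines (479 and 649, all on chromosome 11) were dropped. Starts were taken to count from 0 and are printed counting from 1. Chromosome spans are the last site end over 8 libraries. No genome or annotation of the files' build was used here, so regions are named by position and no sequence is shown. Interval code (Python 3.11.15, pandas 2.3.3) was tested on simulated lists. Tests are two-sided exact permutations over the 4 libraries, and shares have Wilson intervals. The rule for named regions took the 5 widest regions, the 3 fullest windows and the 3 largest runs per class, and the 5 highest-scoring seed-only regions by mean percentile. Regions, classes and tests were chosen with earlier results of these data known. Alternatives covered the width limit, overlap rules, stricter and equally long lists, and each library and chromosome 13 left out.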

Additional observations from a re-analysis of the deposited data

Results flagged for a closer look

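Root sites that the comparison set aside overlapped part of the seed-only regions. Root sites shorter than 100 bp, 11993 in root 1 and 15602 in root 2, met 5168 of the 45890 seed-only regions (11.3%) in some root library, with 2560 met by root 1, 3130 by root 2 and 522 by both. Most of the 5168 thus rested on a single root library. The share of all seed regions met by such short sites is not given here, so 11.3% has no baseline beside it. The seed-only regions met in this way had a median width of 195 bp, against 145 bp for the other 40722, and log2 ratios of outer to inner density of 1.35 and 1.50.

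Chromosome 13 went against the other chromosomes in the seed and root contrast. The log2 ratio of outer to inner density, seed minus root, was -2.01 there and positive on the other 19, and both seed libraries lay below both root libraries. This difference between chromosomes was not tested.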

How the results depend on the processing

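Counts moved with the settings, in directions that the number of sites entering largely fixes. With no minimum width there were 1409 shared and 1722 root-only regions. A minimum of 150 bp gave 281 shared, 27887 seed-only and 222 root-only regions. Stricter lists (the top 50% by score in seed, by width in root) gave 367, 20221 and 281, and lists of 3192 sites each gave 232, 815 and 1061. With a library left out in turn, shared regions numbered 730 to 1426, seed-only regions 46503 to 80107 and root-only regions 553 to 1344. Overlap rules and leaving out chromosome 13 kept the counts within 1.5 times. The log10 median gap, seed minus root, was reversed at equal numbers of sites (1.13). The log2 outer-to-inner ratio of shared regions was reversed with no minimum width (0.29) and without either root library (range over libraries left out -1.18 to 0.35), where fewer libraries had to list a site. For root-only regions that ratio stayed negative, between -3.16 and -1.09, and their leaf share, computed under settings chosen after the data were seen, ran from 7.59 to 44.0%, below that of seed-only regions under the same setting. The score difference between shared and seed-only seed sites, a mean of 33.2 percentile points, was 38.5 within width classes. A replicate block of same-numbered libraries left the outer-to-inner difference at 2.05, with a smallest possible exact p of 0.5. The numbers did not pair the libraries by the base-pair Jaccard index, which was 0.0158 and 0.0195 for same-numbered and 0.0165 and 0.0178 for other seed and root pairs. Read depth, and with it the depth limit of each list, is unknown.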
